A study of Mus musculus with 6 samples.

Results

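Mitochondrial ribosomal protein genes are the nuclear genes whose symbols begin with Mrpl or Mrps followed by a number. Taken by that rule, with pseudogene rows left out, they numbered 77 of the 34665 rows of the count table, 48 with Mrpl symbols and 29 with Mrps symbols. All 77 had counts in every library, between 230 and 10414, and all 77 were among the 16924 genes that had enough counts to be tested. The RNA came from tumours of B16, a melanoma cell line of the mouse, with a genotype given as WT. The ICI group holds 3 tumours (replicates 1, 2 and 3) from mice given an immune checkpoint inhibitor. The RT_ICI group, titled RI, holds 3 tumours (replicates 1, 2 and 4) for which radiation was added, so the inhibitor is common to all 6 samples. Not given in the sources used here are the inhibitor's target, the dose of radiation, the age of the mice, the harvest time and whether the tumour itself was irradiated. The labels give melanoma cells as the cell type, but the RNA came from harvested tumours. B16 is 1 cell line, and separate animals per library are not stated.

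The mitochondrial ribosome is built from proteins made in the cytosol and imported, and from ribosomal RNA made inside the organelle. It translates only the messenger RNAs of the mitochondrial genome, which encode core subunits of the respiratory chain and of the ATP synthase. Many of its proteins descend from those of bacterial ribosomes, and the rest are found only in mitochondria. Their genes are expressed in nearly all cell types, and promoters of this class are known for sites of NRF1, of the GABP and other ETS factors and of YY1. Genes are grouped below by subunit and as kept from bacteria or specific to mitochondria. Mrps18a and Mrps18b, though homologues of a bacterial protein, were placed in the groups specific to mitochondria. Mrps30 and Mrps18a sit in the large subunit in spite of their symbols. Mrps36 was placed in no group, since its protein is known as a subunit of the 2-oxoglutarate dehydrogenase complex.

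In RT_ICI tumours 3 members were higher, Mrpl33, Mrpl27 and Mrps21, by 1.77-fold, 1.66-fold and 1.66-fold. No member was lower, also by DESeq2 or at an unadjusted p under 0.05 in edgeR, and 74 did not pass. A gene was called at an adjusted p under 0.05 (edgeR's quasi-likelihood test, Benjamini-Hochberg adjustment over all tested genes). By this rule 9.18% of all tested genes were called, 4.46% higher and 4.72% lower. The share of members called higher, 3.90%, was near that background. With no statement on animals, p-values reflect only how far these libraries differ among themselves, which may be technical. In bulk RNA, fewer cells of a type and less RNA per cell cannot be told apart.

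The sequence before the start of 5 members is shown, for the 3 that were called and for Mrpl3 and Mrps18b, which had the most negative changes. Each run is the 120 bases before the RefSeq start on GRCm38.p6, 5′ to 3′ on the strand of the gene. Capitals mark the letters of the NRF1 motif (GCGC, any pair of bases, then GCGC) in Mrps21 and of the ETS motif of GABPA (CCGGAAG) where a run holds it whole, in Mrpl27 and Mrpl3. In the longer windows described next all 5 genes hold the ETS motif: that of Mrpl33 crosses the start, and those of Mrps21 and Mrps18b lie after it. The GENCODE model of Mrpl33 begins further upstream, so its window lies inside the annotated gene.
Mrpl33, chr5:31613831-31613950, plus strand: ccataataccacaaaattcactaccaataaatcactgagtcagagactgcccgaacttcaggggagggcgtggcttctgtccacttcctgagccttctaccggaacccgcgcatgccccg
Mrpl27, chr11:94653671-94653790, plus strand: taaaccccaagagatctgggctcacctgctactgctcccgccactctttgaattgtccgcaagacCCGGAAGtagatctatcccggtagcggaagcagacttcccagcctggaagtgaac
Mrps21, chr3:95871515-95871634, minus strand: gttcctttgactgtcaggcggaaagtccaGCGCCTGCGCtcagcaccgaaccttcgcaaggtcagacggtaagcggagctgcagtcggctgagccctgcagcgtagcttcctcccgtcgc
Mrpl3, chr9:105053148-105053267, plus strand: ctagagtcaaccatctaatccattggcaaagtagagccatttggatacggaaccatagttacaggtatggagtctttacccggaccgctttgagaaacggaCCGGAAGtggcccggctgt
Mrps18b, chr17:35916441-35916560, minus strand: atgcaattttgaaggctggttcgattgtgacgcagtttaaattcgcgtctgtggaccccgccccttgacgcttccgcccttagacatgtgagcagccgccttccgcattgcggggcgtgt

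RefSeq windows of 250 bases before and 50 after the start were at hand for 68 of the 77 members (74 windows, since some genes have several starts). Both strands were searched. The ETS motif lay in 33.8% of the member windows and in 8.86% of all 32851 windows. The NRF1 motif lay in 18.9% against 6.23%, and the YY1 motif (AAGATGGC) in 16.2% against 2.75%. The CCAAT box was about as common in member windows (39.2%) as in all (37.4%), as was the E-box (CACGTG, 9.46% against 7.15%), and TATAAA lay in 6.76% against 13.6%. The 7 member windows with the E-box came from 5 genes, since windows of Mrpl2 overlap and hold the same site. Member windows held 59.0% G and C on average, against 53.8% in all windows.

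Medians of members with and without a motif lay close together, except for the E-box. The 25 members with the ETS motif had a median log2 fold change of 0.17 and the 43 without it 0.10. For NRF1 the medians were 0.14 in 14 members with the motif and 0.15 in 54 without, and for YY1 0.09 in 12 and 0.16 in 56. For the E-box they were 0.46 in 5 members with it and 0.12 in 63 without, with no test. These 5 were Mrps18c (0.57), Mrpl2 (0.46), Mrpl20 (0.46), Mrpl36 (0.16) and Mrpl37 (-0.33).

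Levels are given as CPM, the count scaled to the size of the library, after the TMM correction of that size. Mrpl33 encodes a large subunit protein of bacterial descent (ENSMUSG00000106918, chromosome 5, 31596935 to 31664384 on GRCm38). Its level was 32.8, 34.7 and 38.0 CPM in ICI replicates 1, 2 and 3 and 52.8, 69.1 and 64.5 CPM in RT_ICI replicates 1, 2 and 4. Every RT_ICI library lay above every ICI library. The means were 35.2 ± 2.64 and 62.1 ± 8.41 CPM (SD, n = 3 each), a log2 fold change of 0.82 (SE 0.14, adjusted p = 0.0268).

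Mrpl27 encodes the homologue of bacterial L27, which reaches toward the peptidyl transferase centre (ENSMUSG00000024414, chromosome 11, 94653767 to 94660089). It stood at 33.2, 41.2 and 37.6 CPM in ICI and at 58.8, 67.5 and 59.7 CPM in RT_ICI. The lowest RT_ICI library, replicate 1, was well above the highest ICI library, replicate 2. The log2 fold change was 0.73 (SE 0.13, adjusted p = 0.0290). Its pseudogene Mrpl27-ps, near-identical over 59.1% of the transcript, held 2.23% of its count.

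Mrps21 encodes a small subunit protein of bacterial descent (ENSMUSG00000054312, chromosome 3, 95862634 to 95871519). It was at 34.4, 39.8 and 37.3 CPM in ICI and 49.4, 79.8 and 55.4 CPM in RT_ICI. RT_ICI replicate 2 stood far above the other RT_ICI libraries, and without it the log2 fold change went from 0.73 (SE 0.19) to 0.51. With adjusted p = 0.0499, Mrps21 was just inside the threshold. The near-identical Gm6181 held 1.32% of its count.

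The 3 calls depended on single libraries. Without ICI replicate 1, ICI replicate 3, RT_ICI replicate 2 or RT_ICI replicate 4 no member was called by edgeR, where the calls over all tested genes also went to 0%, 0.0115%, 0% and 0.549%. At an unadjusted p under 0.05, these fits had 12, 16, 15 and 14 members higher and 0 lower. Over the 17746, 17377, 17266 and 17673 genes tested in them, 1841, 1996, 2130 and 2353 were higher and 1860, 2203, 1977 and 2149 lower. In those fits Mrpl33 had adjusted p from 0.0739 to 0.148, Mrpl27 from 0.0723 to 0.148 and Mrps21 from 0.0950 to 0.188, the highest without ICI replicate 1. The log2 fold change of Mrpl33 stayed between 0.75 and 0.87. Without ICI replicate 2, where 3.02% of all tested genes were called, the members called were Mrpl27 (adjusted p = 0.0466) and Mrpl54, and Mrpl33 and Mrps21 were at 0.0549 and 0.0896. Without RT_ICI replicate 1 all 3 stayed called and 12 members were higher and 5 lower, as described further on.

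A further group of members lay just outside the threshold. At an adjusted p under 0.1, 14 members were higher and 0 lower, where all 16924 tested genes gave 1802 higher (10.6%) and 1833 lower. With p under 0.05 before adjustment, 20 members were higher and 0 lower, where all tested genes gave 15.7% higher and 15.8% lower. DESeq2 called 14 members higher and 0 lower at an adjusted p under 0.05. Of all 16924 tested genes it called 1746 higher (10.3%) and 1703 lower.

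Mrpl51, a large subunit protein specific to mitochondria, is the most abundant of those near the threshold (chromosome 6, 125191801 to 125196269). It was at 119, 142 and 131 CPM in ICI and 166, 202 and 193 CPM in RT_ICI (log2 fold change 0.52, SE 0.14, adjusted p = 0.0519). The groups did not overlap, and RT_ICI replicate 1 was the lowest of its group. Mrps35, a small subunit protein specific to mitochondria, had the tightest groups, with 47.4, 51.2 and 47.5 CPM in ICI and 64.7, 65.9 and 63.5 CPM in RT_ICI (0.41, SE 0.11, adjusted p = 0.0511). Mrpl2, the homologue of bacterial L2 close to the peptidyl transferase centre, was at 65.8, 83.2 and 72.1 CPM and at 99.0, 104 and 101 CPM (0.46, adjusted p = 0.0580).

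Mrpl54 and Mrpl57 are large subunit proteins without a bacterial counterpart. Mrpl54 was at 38.1, 56.9 and 36.0 CPM in ICI and 71.4, 79.2 and 65.5 CPM in RT_ICI (0.72, adjusted p = 0.0518). Its ICI libraries differed among themselves, with replicate 2 above the others. Mrpl57 was at 30.0, 39.1 and 31.0 CPM and at 43.9, 61.2 and 51.2 CPM (0.64, adjusted p = 0.0517). Mrpl20, of bacterial descent, was at 56.0, 64.3 and 62.3 CPM and at 83.7, 90.0 and 76.8 CPM (0.46, adjusted p = 0.0517). Mrps36 was at 22.0, 24.7 and 23.0 CPM and at 29.9, 37.4 and 33.2 CPM (0.53, adjusted p = 0.0519). In each of these 4 genes the lowest RT_ICI library lay above the highest ICI library, as in 17.8% of all tested genes. They were named for their small p, so the lack of overlap is no separate support.

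**Figure D1:**
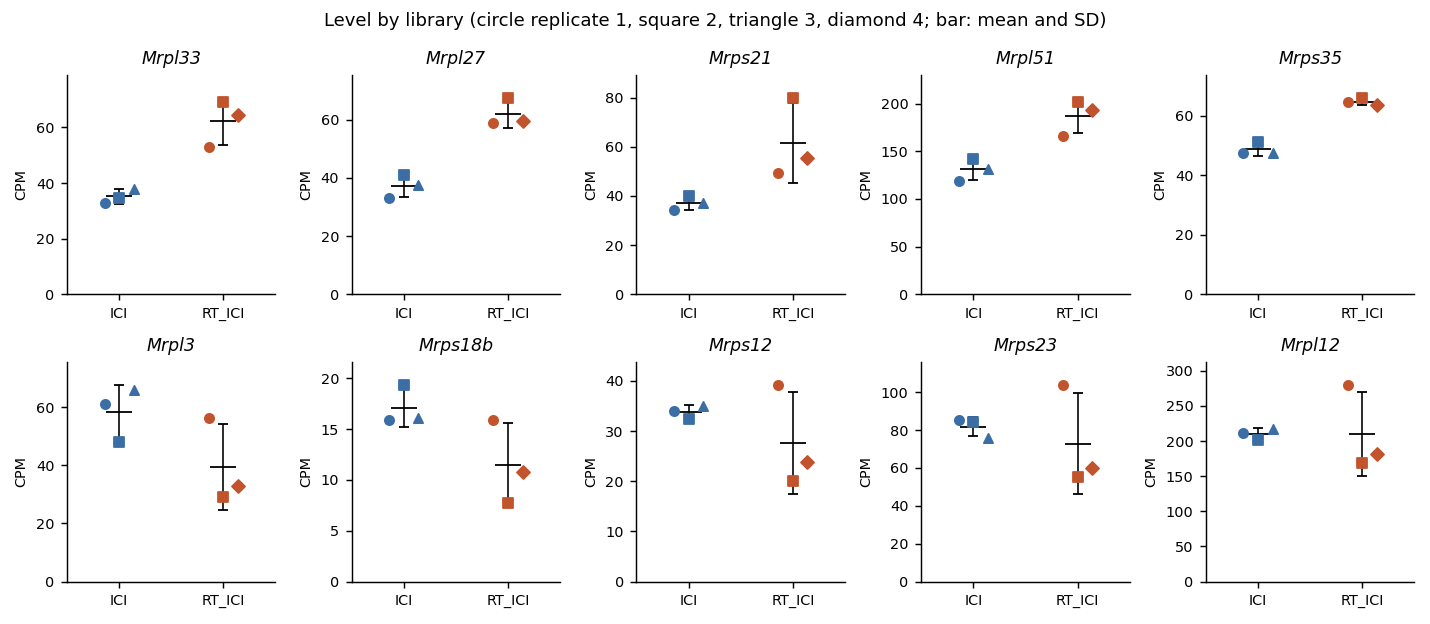
Level in CPM (vertical axes, from 0) of 10 members in each library, ICI in blue and RT_ICI in orange, with the group mean and SD. In the upper row every RT_ICI library lies above every ICI library. In the lower row RT_ICI replicate 1 lies well above RT_ICI replicates 2 and 4.

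Over all members the changes were small. The log2 fold change was above 0 in 61 of 77, where 51% of all tested genes were above 0. The median was 0.15, with quartiles at 0.02 and 0.36 and a range from -0.58 to 0.82, and the median SE was 0.15. Over all tested genes the median was 0.01 and the quartiles -0.34 and 0.45. Groups did not overlap in 22 members that were higher and in 1 that was lower, where 17.8% and 19.4% of all tested genes had no overlap in those directions. Members are not independent of each other, and nothing particular to them can be read from these counts.

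Of 29 large subunit proteins kept from bacteria, 2 rose (Mrpl33 and Mrpl27), 0 fell and 27 did not pass, with a median log2 fold change of 0.15. Of 21 large subunit proteins specific to mitochondria edgeR called none, with 6 higher and 0 lower at p under 0.05 before adjustment and 4 and 0 by DESeq2, and the median was 0.19. Of 16 small subunit proteins kept from bacteria, 1 rose (Mrps21), 0 fell and 15 did not pass, with a median of 0.22. Of 10 small subunit proteins specific to mitochondria edgeR called none, with 2 and 0 before adjustment and 1 and 0 by DESeq2, and the median was 0.02. Mrpl and Mrps symbols gave the same median, 0.15. Of all tested genes edgeR called 4.46% higher and 4.72% lower. Before adjustment 15.7% of them were higher and 15.8% lower at p under 0.05, and DESeq2 called 10.3% higher. The groups are small, and differences between them were not tested.

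**Figure D2:**
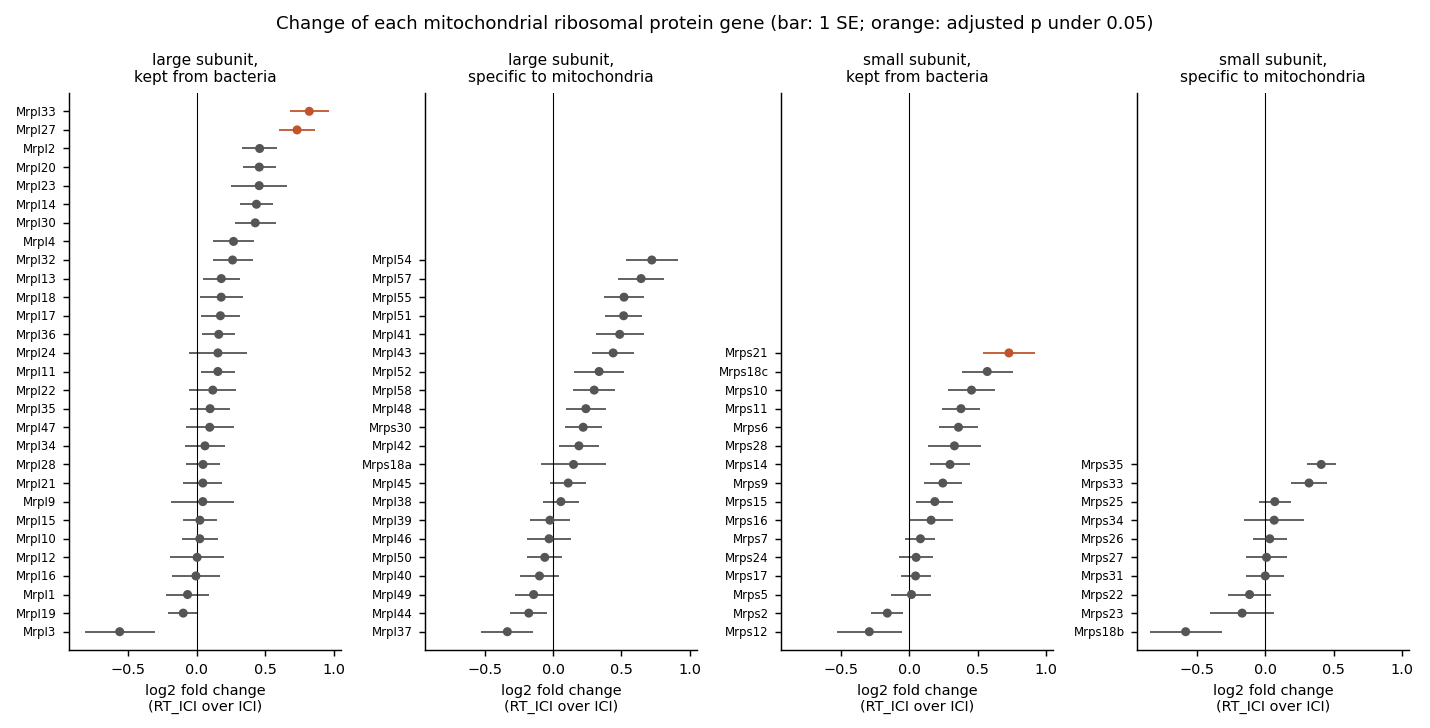
Log2 fold change of RT_ICI over ICI (horizontal axes) for the members in 4 groups, with bars of 1 SE. Mrps36, which is in no group, is left out. The 3 called members are in orange, and Mrpl3 and Mrps18b stand apart at the low end.

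Mammals keep a trio of homologues of the bacterial protein S18, and their values differed here. Mrps18c, which holds the bacterial position, was at 9.09, 13.6 and 11.2 CPM in ICI and 16.8, 17.4 and 16.1 CPM in RT_ICI (log2 fold change 0.57, SE 0.19, adjusted p = 0.0840). Mrps18a, in the large subunit, was at 43.4, 44.2 and 42.1 CPM in ICI and at 67.4, 33.2 and 43.5 CPM in RT_ICI (0.15, adjusted p = 0.690). Its RT_ICI libraries lay on both sides of ICI.

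Mrps18b, in the small subunit, was at 15.9, 19.3 and 16.1 CPM in ICI and 15.9, 7.73 and 10.7 CPM in RT_ICI (-0.58, SE 0.26, adjusted p = 0.171). RT_ICI replicate 1 was level with ICI replicate 1, and the other RT_ICI libraries were clearly lower. Of the bases of its transcript, 53.7% are shared with the antisense gene Gm16279 and 38.7% with Gm13552, which held 66.8% as many counts, so its level is uncertain. The differences between these 3 genes were not tested.

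RT_ICI replicate 1 stood apart from the other libraries. It had counts on 29748 rows, against 22763 to 24891 elsewhere. Without it 12 members were higher and 5 lower, where 8.91% and 8.80% of all tested genes were called in those directions. The members higher were Mrpl2, Mrpl14, Mrpl20, Mrpl27, Mrpl33, Mrpl51, Mrpl55, Mrpl57, Mrps11, Mrps21, Mrps35 and Mrps36. Those lower were Mrpl3, Mrpl37, Mrps12, Mrps18b and Mrps23.

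Mrpl3 is the homologue of bacterial L3, 1 of the proteins that begin assembly of the large subunit (chromosome 9, 105053239 to 105079888). It was at 61.0, 48.0 and 65.8 CPM in ICI and at 56.2, 29.1 and 33.0 CPM in RT_ICI. The first RT_ICI library lay within the ICI range and the other two below it. The log2 fold change was -0.56 (SE 0.26, adjusted p = 0.173) with all libraries and -0.91 (adjusted p = 0.0182) without RT_ICI replicate 1. Mrps12, the homologue of the S12 protein of the decoding centre, was at 34.0, 32.3 and 35.1 CPM and at 39.1, 20.1 and 23.8 CPM (-0.29, adjusted p = 0.424, and -0.63, adjusted p = 0.0250, without that library).

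Mrps23, a small subunit protein specific to mitochondria, was at 85.3, 84.2 and 75.9 CPM in ICI and 104, 55.0 and 59.7 CPM in RT_ICI. Its log2 fold change was -0.17 (adjusted p = 0.644) and, without RT_ICI replicate 1, -0.51 (adjusted p = 0.0294). Mrpl37, of the large subunit, was at 43.2, 41.0 and 53.7 CPM and at 46.3, 30.8 and 32.4 CPM (-0.33, adjusted p = 0.262, and -0.54, adjusted p = 0.0496, without that library). Mrps18b went to -0.89 (adjusted p = 0.0290). Mrpl3, Mrpl37 and Mrps23 were chosen after their values were seen.

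The pattern counted next was not a planned comparison. It builds on the deviation of RT_ICI replicate 1 in these same data, and no test was made of it. In 6 members, 7.79% of them, RT_ICI replicate 1 lay above every ICI library and RT_ICI replicates 2 and 4 below every ICI library. They were Mrpl12, Mrpl46, Mrpl50, Mrps12, Mrps23 and Mrps27, and 2.75% of all tested genes had that pattern. The opposite pattern was seen in 0 members and in 3.94% of all tested genes. Mrpl12, the stalk protein that recruits elongation factors and also binds the mitochondrial RNA polymerase, shows it most plainly. It was at 211, 201 and 218 CPM in ICI and at 279, 169 and 182 CPM in RT_ICI, so that the group means were 210 ± 8.56 and 210 ± 60.2 CPM (SD, n = 3 each). The log2 fold change was 0.00 (adjusted p = 0.997) with all libraries and -0.26 (adjusted p = 0.176) without RT_ICI replicate 1.

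Several members with a known special role were not called. Mrpl58, a peptidyl-tRNA hydrolase built into the large subunit, was at 48.1, 64.4 and 49.1 CPM in ICI and 59.9, 66.4 and 72.7 CPM in RT_ICI (0.30, adjusted p = 0.212). Mrpl28, first described as a melanoma antigen recognised by T cells, was at 59.4, 58.4 and 66.2 CPM and at 69.6, 58.9 and 61.4 CPM (0.04, adjusted p = 0.826). The ranges of the groups overlapped in both. Mrpl44, which carries a fold of the RNase III type, had a log2 fold change of -0.18 (adjusted p = 0.388). Mrps16 and Mrps22, known for inherited defects of mitochondrial translation, had 0.16 and -0.11 (adjusted p = 0.509 and 0.646).

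Levels between genes were compared per kilobase of the principal transcript, as the mean of all 6 libraries. Mrpl42 (181 CPM per kilobase), Mrpl12 (160) and Mrpl52 (157) were highest. Mrpl1 (4.22), Mrpl47 (5.97) and Mrps30 (7.65) were lowest. The highest level was 42.9 times the lowest, although each protein is present once or in few copies per ribosome. The median was 28.9 CPM per kilobase, with quartiles at 14.1 and 56.9. Annotated lengths include untranslated ends, and where tumour transcripts end elsewhere the value per kilobase moves. Mrpl42 has a principal transcript of 666 bases and a longest one of 3277, for example.

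**Figure D3:**
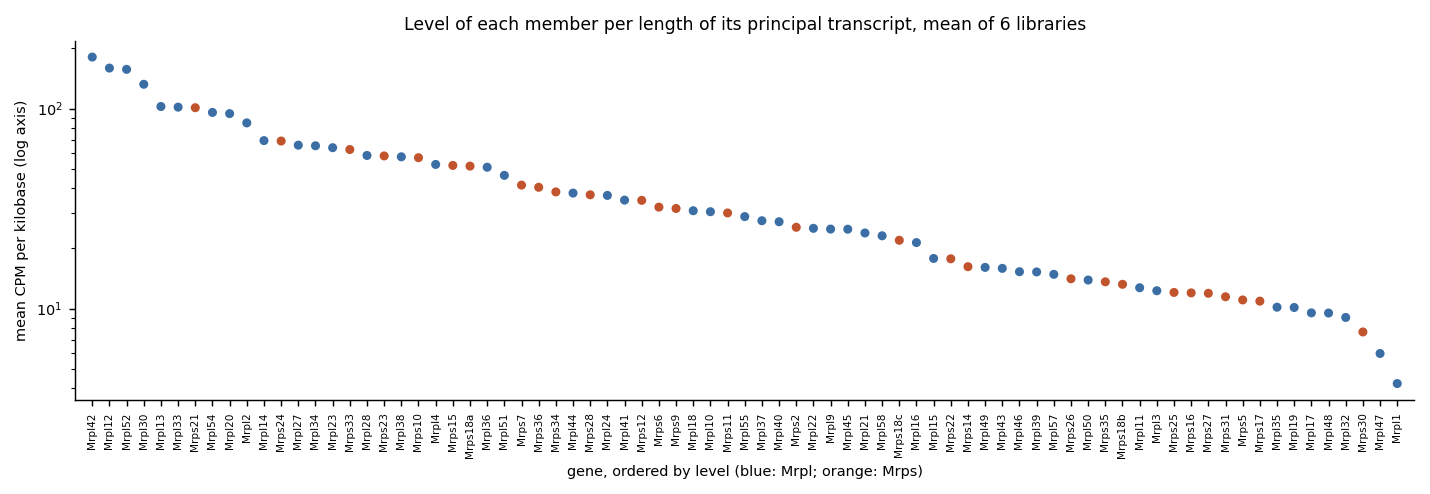
Mean level of the 77 members over 6 libraries in CPM per kilobase of the principal transcript (vertical log axis), ordered from Mrpl42 at 181 to Mrpl1 at 4.22, with Mrpl symbols in blue and Mrps symbols in orange. The symbols are mixed along the whole range.

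The members' spread within a group was small. Their median SD of log2 CPM was 0.13 in ICI and 0.16 in RT_ICI, against 0.22 and 0.28 over all tested genes, which also include less abundant ones. Set against each gene's own mean, the members lay at a median of -0.18, 0.01 and -0.05 in ICI replicates 1, 2 and 3 and at 0.16, 0.09 and 0.05 in RT_ICI replicates 1, 2 and 4 (log2 CPM). ICI replicate 1 was the lowest library for 39 of the 77 members. RT_ICI replicate 1 was the highest for 25, RT_ICI replicate 2 for 29 and RT_ICI replicate 4 for 9, while ICI replicates 1, 2 and 3 were the highest for 1, 4 and 9. Of all 16924 tested genes, 2742 were lowest in ICI replicate 1. RT_ICI replicates 1, 2 and 4 were the highest for 3367, 3449 and 2439 of them, and ICI replicates 1, 2 and 3 for 2886, 1729 and 3054. For the members each ICI median lay below each RT_ICI median, and ICI replicate 2 and RT_ICI replicate 4 were close.

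Cytosolic ribosomal protein genes, the counterpart outside the organelle, gave another profile over the libraries. Of 77 such genes 13 were higher (16.9%) and 0 lower, with a median log2 fold change of 0.46. Of all tested genes 4.46% were higher and 4.72% lower. DESeq2 called 40 of the 77 higher. After the length and GC correction described below 1 was higher, and 0 with the principal transcript's length, with medians of 0.29 and 0.15. With a library left out 0 to 19 were higher, and 0 without ICI replicate 1, ICI replicate 3 or RT_ICI replicate 2. ICI replicate 3 was the lowest library for 64 of the cytosolic genes, for 7 of the mitochondrial ones and for 3250 of all 16924 tested genes. The difference between the lists was not tested.

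**Figure D4:**
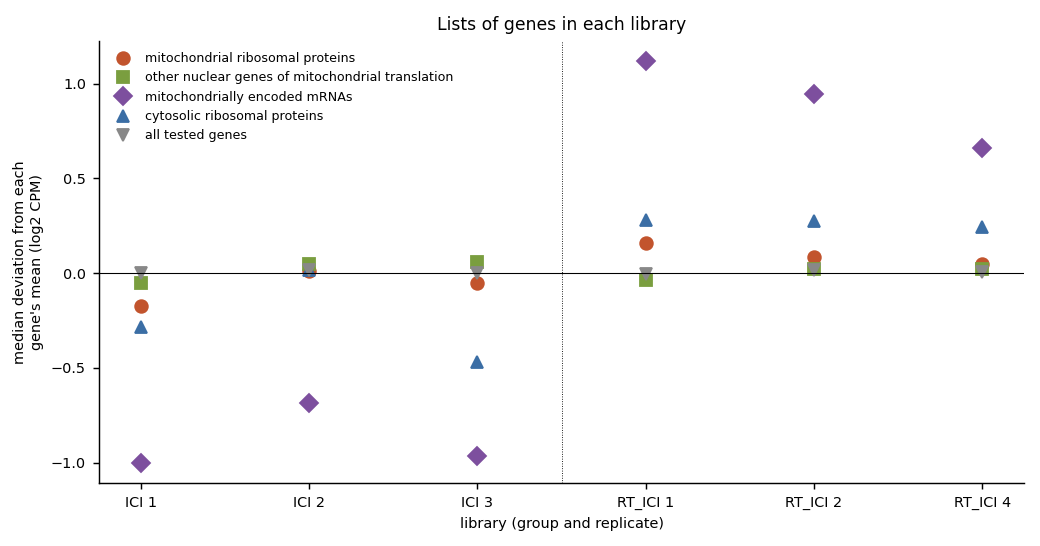
Median deviation from each gene's mean log2 CPM (vertical axis) of 5 lists of genes in each library (horizontal axis), with ICI to the left and RT_ICI to the right of the dotted line. Mitochondrial ribosomal proteins go from -0.18 in ICI replicate 1 to 0.16 in RT_ICI replicate 1, and mitochondrially encoded mRNAs move much further.

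The members took 0.374%, 0.406% and 0.408% of all counts in the ICI libraries and 0.370%, 0.405% and 0.389% in RT_ICI. Counting error alone, as a 95% Wilson interval, moves each share by no more than 0.00258 percentage points. The means were 0.396% ± 0.0189 and 0.388% ± 0.0179 (SD, n = 3 each), a difference smaller than the SD. The denominator itself changed, since mitochondrially encoded mRNAs went from 4.53% to 12.8% of it on average. With all mitochondrially encoded genes, not only the mRNAs, and their nuclear copies left out of the total, the members took 0.425% ± 0.0213 and 0.479% ± 0.0156. Every RT_ICI library (0.467% to 0.496%) lay above every ICI library (0.400% to 0.438%). Counts of mitochondrially encoded mRNA per count of a member averaged 11.4 ± 0.732 (SD) over the ICI libraries and 33.2 ± 5.46 over the RT_ICI libraries. These are the messengers that the ribosome translates, and the ratio was higher in each RT_ICI library (29.3 to 39.4) than in each ICI library (10.6 to 12.1). Counts on the nuclear copies are not in this ratio.

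Of the ribosome's other parts, mt-Rnr2, the large ribosomal RNA, was at 240, 440 and 172 CPM in ICI and 959, 783 and 609 CPM in RT_ICI (log2 fold change 1.46, SE 0.35, adjusted p = 0.0450). The small ribosomal RNA mt-Rnr1 was at 306, 496 and 177 CPM and at 561, 573 and 699 CPM (0.90, adjusted p = 0.119). Both were spread widely within ICI, and how the libraries were depleted of or selected against ribosomal RNA is not given in the sources used here. The call of mt-Rnr2 ended without ICI replicate 1 (adjusted p = 0.168), ICI replicate 3 (0.112), RT_ICI replicate 1 (0.0713), RT_ICI replicate 2 (0.131) or RT_ICI replicate 4 (0.0806). It also ended with no filter on low counts (adjusted p = 0.133) and with the length and GC correction (0.0602).

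Among 5 ribosomal proteins with other symbols, Aurkaip1, of the small subunit, rose 1.53-fold. It was at 56.8, 69.7 and 52.6 CPM in ICI and 92.6, 87.5 and 94.0 CPM in RT_ICI (log2 fold change 0.61, adjusted p = 0.0382). The others, Dap3, Ptcd3, Chchd1 and Gadd45gip1, were not called and lay between -0.10 and 0.09.

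Of 25 genes that assemble the ribosome or modify its RNA, 0 rose and 1 fell in edgeR, with a median log2 fold change of -0.05. Before adjustment 3 were higher and 2 lower at p under 0.05, and DESeq2 called 1 and 1. Of all tested genes edgeR called 4.46% higher and 4.72% lower, with 15.7% and 15.8% before adjustment, and DESeq2 called 10.3% higher. Noa1, a GTPase needed for the small subunit, was at 46.4, 38.5 and 50.1 CPM in ICI and at 28.3, 26.5 and 27.0 CPM in RT_ICI (-0.72, SE 0.14, adjusted p = 0.0326). Of 15 translation factors, 0 rose and 2 fell, with 2 and 3 before adjustment, 0 and 2 by DESeq2 and a median of -0.15. Taco1, an activator of the translation of cytochrome c oxidase subunit I, went from 15.0, 9.76 and 12.5 CPM to 6.67, 5.12 and 4.76 CPM (-1.17, SE 0.24, adjusted p = 0.0346). Mrrf, the ribosome recycling factor, went from 24.5, 25.6 and 25.3 CPM to 17.9, 15.6 and 17.5 CPM (-0.56, SE 0.14, adjusted p = 0.0437). In these 3 genes every RT_ICI library lay below every ICI library, as in 19.4% of all tested genes. They were named because they were called, so the lack of overlap is no separate support.

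Of 17 mitochondrial aminoacyl-tRNA synthetases edgeR called none. At p under 0.05 before adjustment 0 were higher and 3 lower, against 15.7% and 15.8% of all tested genes. DESeq2 called 0 and 1 of the 17. The smallest p was that of Yars2, which charges tyrosine (-0.66, adjusted p = 0.0595). Aurkaip1, Noa1, Taco1 and Mrrf all missed the threshold without ICI replicate 1 (adjusted p from 0.150 to 0.162), ICI replicate 3 (0.106 to 0.125), RT_ICI replicate 2 (0.0992 to 0.131) or RT_ICI replicate 4 (0.0857 to 0.108). Without ICI replicate 2 Mrrf missed it too (0.0872), while the other three were at 0.0466. Without RT_ICI replicate 1 all of these stayed called.

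Short transcripts were higher in RT_ICI over the whole table, and many members are short. Their longest transcripts have a median of 1884 bases, against 2964 over all tested genes with a length. Under 1000 bases, 16 members had a median log2 fold change of 0.45 and all 2136 tested genes one of 0.35. From 1000 to 2000 bases the medians were 0.05 for 24 members and 0.20 for all, from 2000 to 3000 bases 0.15 for 15 members and 0.06 for all, and from 3000 bases on 0.12 for 22 members and -0.13 for all. By the principal transcript, with all genes that have one, the medians were 0.39 for 24 members and 0.44 for all under 1000 bases and 0.04 for 28 members and 0.16 for all from 1000 to 2000. They were 0.14 for 8 members and -0.00 for all from 2000 to 3000, and 0.09 for 17 members and -0.17 for all from 3000 on. By that length the members lay below the genes of like length in the shorter 2 ranges and above them in the longer 2, and under 1000 bases the order turned with the choice of transcript. No test was made of this.

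After a correction of each library for the length and GC content of the longest transcript, 3 members were higher and 0 lower, where 1.5% of all tested genes were higher. The members' median was 0.09, with 47 of 77 above 0, and before adjustment 17 were higher and 7 lower at p under 0.05. Of all 16852 genes tested in this fit, 2368 were higher and 2252 lower before adjustment. The members called were Mrpl33 (adjusted p = 0.0299), Mrpl51 (0.04995, just inside the threshold) and Mrps35 (0.0415). Mrpl27 and Mrps21 were at 0.0601 and 0.188. The longest transcript of Mrpl33 has 2741 bases and its principal one 478. With the principal transcript's length 2 were higher, Mrpl51 (0.0487) and Mrps35 (0.0400), where 1.08% of all tested genes were higher. The members' median was 0.03, with 43 of 77 above 0, and before adjustment 13 were higher and 9 lower. Of all 13649 genes tested in this fit, 1847 were higher and 1721 lower before adjustment. Mrpl33, Mrpl27 and Mrps21 were at adjusted p = 0.190, 0.106 and 0.548, and the log2 fold change of Mrpl33 went from 0.82 to 0.36.

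**Figure D5:**
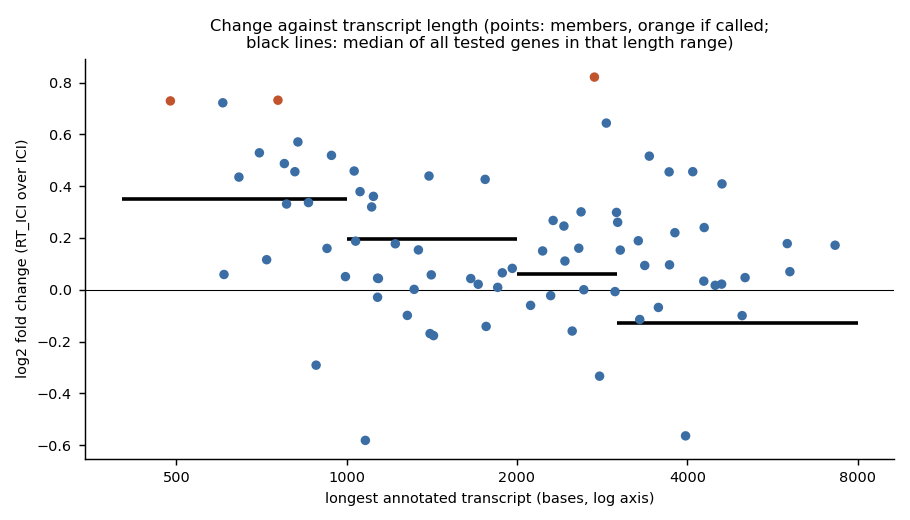
Log2 fold change of RT_ICI over ICI (vertical axis) of the 77 members against the length of the longest annotated transcript (horizontal log axis, bases), with the 3 called members in orange. Black lines give the median of all tested genes in each length range, from 0.35 under 1000 bases to -0.13 from 3000 bases on.

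Many members lie beside a gene that starts on the other strand. A protein-coding gene began within 1000 bases on the opposite strand for 33 of the 77 (42.9%), against 15.4% of 13634 tested protein-coding genes. Mrpl46 and Mrps11 are such a pair, 412 bases apart on chromosome 7, with log2 fold changes of -0.03 and 0.38, neither of them called. Mrpl27 starts 197 bases from Eme1, a nuclease subunit, which was not called (-0.13, adjusted p = 0.786). Mrpl51 and Mrpl57 start 100 and 49 bases from the mitotic genes Ncapd2 and Ska3, which had -0.24 and -0.41 (adjusted p = 0.525 and 0.350). Of the 33 neighbours, with Mrpl46 and Mrps11 counted for each other, 32 had a test (B430218F22Rik beside Mrps30 had none). Of these 2 were called, both higher, where 4.46% of all tested genes were called higher and 4.72% lower. They were Pnpla7 beside Mrpl41 (0.93, adjusted p = 0.0263) and Eme2 beside Mrps34 (1.20, adjusted p = 0.0357), both chosen after their values were seen. In these pairs the member itself was not called.

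Overlaps make some members' counts uncertain, since the strand setting of the counting is not given. In 23 members another gene with over 10% of their counts shares sequence with them, on the opposite strand in 19. Mrpl19, Mrpl24, Mrpl43, Mrps18b, Mrps25, Mrps33 and Mrps34 share at least 20% of their length with such a gene. None of the 3 called members is among these 7. Mrpl27 is among the 23: Eme1, on the opposite strand, shares 7.61% of its length and held 16.2% as many counts.

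Levels of other cells' markers moved with the libraries. The 8 melanocyte markers summed to 13371 to 15207 CPM in ICI and 10088 to 14401 CPM in RT_ICI, so melanoma cell RNA was abundant in all 6 libraries. The 8 skeletal muscle markers summed to 227, 185 and 2.86 CPM in ICI and to 2446, 1105 and 19.9 CPM in RT_ICI, and Myh2 was at 0 in ICI replicate 3. The 8 adipocyte markers summed to 0.805, 0.679 and 26.5 CPM in ICI and to 79.9, 59.9 and 67.6 CPM in RT_ICI, with Plin1, Cidec, Lep and Pck1 at 0 in ICI replicates 1 and 2.

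The 6 red cell markers summed to 226, 647 and 4481 CPM in ICI and 144, 454 and 110 CPM in RT_ICI. The 14 cell cycle genes summed to 1768, 1657 and 2600 CPM in ICI and 1382, 1431 and 1215 CPM in RT_ICI. Of these genes 3 were called lower and 0 higher, where 4.72% and 4.46% of all tested genes were called in those directions. Among the melanocyte and the adipocyte markers 1 gene each was called higher and 0 lower. In the other marker lists no gene was called. The 8 leukocyte markers summed to 59.7, 29.8 and 22.3 CPM in ICI and 38.8, 14.9 and 11.2 CPM in RT_ICI. Singly they went both ways: the 6 that were tested had log2 fold changes from -2.61 to 2.28, with 2 above 0. The 7 fibroblast markers summed to 317, 106 and 710 CPM in ICI and 736, 459 and 352 CPM in RT_ICI. The 5 endothelial markers summed to 150, 57.0 and 150 CPM in ICI and 172, 64.3 and 33.6 CPM in RT_ICI. The part of these cells and of proliferation in the members' levels was not tested.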

How the data were processed

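Counts per gene, as whole numbers, were deposited by the authors. Per the submitters' processing notes, HISAT2 was named as a tool and GRCm38 and mm10 as builds. The counting tool, annotation and strand setting are not stated there. Library totals were 22543721 to 45624013 counts, which leaves counting error small beside the spread between libraries.

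All genes kept by filterByExpr (16924) were fitted with edgeR 4.0.16 in R 4.3.3 (TMM scaling, robust quasi-likelihood test, 6 libraries, no covariates). P-values were adjusted over all of them. The SE came from the coefficient and the F statistic. DESeq2 1.42.0, limma-voom (limma 3.58.1), other scalings and filters, the replicate block, a length and GC correction and fits without each library were alternatives. The version with principal transcripts was added after seeing the data. Fits and correction were tested on simulated data.

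Members and lists were chosen with earlier results of these data known. Named genes are the called members, those of smallest p up to 10, the 3 highest and 3 lowest per length, a fixed set of 12, members sharing sequence with a gene of over 10% of their counts, and up to 2 genes of each other list. Not all are reported. Positions and lengths came from GENCODE M21 on GRCm38, and sequences from RefSeq on GRCm38.p6. Shared sequence was exon overlap or at least 200 bases at 95% identity. Mrpl53 and 9 members' promoters were not analysed here.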

Additional observations from a re-analysis of the deposited data

How the results depend on the processing

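The median log2 fold change of the members stayed above 0 under every setting, from 0.03 (length and GC correction, principal transcript) to 0.24 (upper-quartile scaling), and Mrpl33, Mrpl27, Mrps21, Aurkaip1, Noa1, Taco1, Mrrf and mt-Rnr2 kept their direction. Some members that were not called, and medians of smaller lists, did not. That of small subunit proteins specific to mitochondria, 0.02, was -0.04 with no filter, -0.06 with the principal transcript's correction, -0.02 without ICI replicate 1 and -0.06 without RT_ICI replicate 1. That of translation factors, -0.15, was 0.04 with the block and 0.00 and 0.03 with the corrections. That of assembly genes, -0.05, was 0.04 with upper-quartile scaling and 0.01 without ICI replicate 2. The number of members called higher, 3 in the text, was 9 with median-of-ratios scaling, 12 with upper-quartile scaling and 5 with no filter on low counts. It was 12 with a filter of 1 CPM in 3 libraries, 0 with the replicate block and 14 with DESeq2. It was 2 with limma-voom, and 2 with edgeR when mitochondrially encoded genes and copies were left out. There Mrps21 was at adjusted p = 0.0602 and 0.0507. At an adjusted p under 0.1 it was 14, and with a library left out 0 to 12. The number called lower was 0 to 5 with a library left out and 0 under all other settings. Upper-quartile scaling also moved the calls over all genes, from 754 higher and 799 lower to 1046 and 497. Genes called higher were 795 of 16924 with median-of-ratios scaling, 1121 of 34665 with no filter and 855 of 14037 with the 1 CPM filter. They were 400 of 16924 with the block, 1746 of 16924 with DESeq2 and 635 of 16924 with limma-voom. With mitochondrially encoded genes and copies left out they were 713 of 17075. In the other lists of mitochondrial translation 1 gene was higher and 3 lower. The first count was 0 with the block and with both length and GC corrections, 2 with DESeq2 and 0 to 4 with a library left out. The second was 5 with no filter, 0 with the block and 0 to 6 with a library left out. The members' share of counts, 0.396% in ICI and 0.388% in RT_ICI, was 0.425% and 0.479% without mitochondrially encoded genes and copies, and 0.367% and 0.419% of TMM effective library sizes. The cause of these shifts was not tested. Same-numbered libraries had correlations of deviations of 0.353 and 0.091, too few pairs to call them paired. The labels' numbers are no more than names here. With the block Mrpl33, Mrpl27 and Mrps21 were at adjusted p = 0.0503, 0.0571 and 0.0697. That fit compares the groups only within replicate numbers 1 and 2, so it is not on a par with the fits of all 6 libraries. With 3 libraries a group an exact permutation test could not go below 0.1 for a single value.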
